A study of Homo sapiens with 12 samples.

Results

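The change in RNA of PANC1 cells after 96 h with C646 was measured against cells kept for 96 h in the solvent alone. PANC1 is an established line from a pancreatic ductal carcinoma. The treated cells received 10 uM C646, and the controls received 0.05% DMSO, the solvent that both groups shared. The study also collected both groups at 12 h, treated PANC1 with ICG-001 (a drug that blocks the binding of CBP to β-catenin), and did the same in HCT116, a colon cancer line. RNA was hybridised to Illumina HumanHT-12 v4 BeadChips, in which probes on beads give a brightness, here called the signal, for each gene name. Each group had 1 column of signals, a mean of 2 arrays, so the variation between replicates is unknown here, nothing was tested, and every difference below is a size with no replicate check. The 96 h cultures were started at a lower density than the 12 h cultures and were passaged during treatment, and C646 or DMSO was renewed daily. Results from 1 line hold for that line only.

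Of the 34687 rows (gene names) in the table, 16562 were compared, those with a signal above the detection limit in at least 1 of the 2 columns. The limit was the peak of a column's log2 signals plus the multiple of the SD, taken from values under the peak, that leaves 99.0% of a normal background below it. It lay at a signal of 138.5 in DMSO and 137.9 in C646. A row was called higher or lower when its signals differed at least 1.5-fold. No background had been subtracted, and for that reason a dim gene's ratio is smaller than its change. The RNA came from whole cultures, and fewer expressing cells cannot be told apart from less RNA per cell.

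CBP (CREBBP) and p300 (EP300) are co-activators that transcription factors bring to promoters and enhancers, where they transfer acetyl groups from acetyl-CoA to histone tails and to other proteins. C646 competes with acetyl-CoA in the pocket of both enzymes. Factors known to use them include β-catenin with TCF7L2, AP-1, NF-kB, SMADs and CREB, so targets of these factors were among the lists of genes examined.

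Markers of cell types were read first. Of 10 ductal markers, 8 were above the limit in each column, led by KRT19 (a keratin of ducts) at 11273 in DMSO and 11748 in C646. The intermediate filament gene VIM had a signal of 18144 in DMSO and 17866 in C646. None of the 7 acinar, 5 endocrine and 4 endothelial markers was above the limit in either column, and 1 of 6 leukocyte markers (CD14, 167 in DMSO and 173 in C646) and 2 of 6 fibroblast markers (COL1A1 and COL3A1) were. Of 6 colon epithelial markers 3 were above it in both columns, all dim: CDX2 (217 in DMSO and 187 in C646), LGALS4 (143 and 155) and GPA33 (148 and 141). The mesenchymal matrix gene FN1 was under the limit in both (121 and 120).

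C646 changed 684 of the 16562 rows, or 4.13%. Of these, 481 were higher (2.9% of rows compared) and 203 were lower (1.23%), so rises made up 70.3% of the changed rows. The median size was 0.88 on the log2 scale for rises and -0.70 for falls. Past 2-fold there were 186 rises and only 14 falls. The median ratio of the compared rows was -0.02, with 46.3% of them above 0 and 53.7% below. The median DMSO signal was 480 for rises and 812 for falls, against 260 for all rows compared. With background left in, a dim row had little room to fall 1.5-fold, and its rise was understated. None of the 18125 rows at or under the limit in both columns reached 1.5-fold. These medians therefore do not show that dim genes responded less. In 9 of the rises the DMSO signal was at or under the limit, and in 2 of the falls (FOS and ANKRD1) the C646 signal was.

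**Figure D1:**
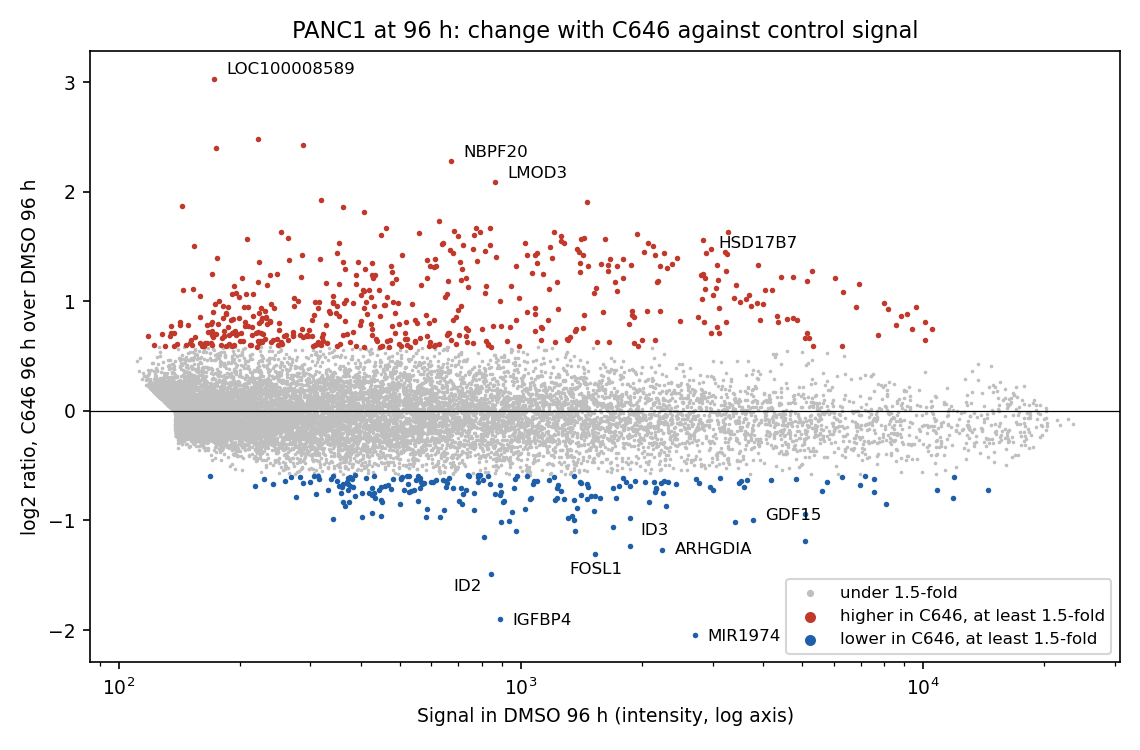
Each point is a row compared in PANC1 at 96 h, with the DMSO signal on the horizontal log axis and the log2 ratio of C646 over DMSO on the vertical axis. The 481 rises (red) reach 3.04 and the 203 falls (blue) reach -2.04 on the log2 scale.

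The largest fall of a protein-coding gene was that of IGFBP4, a secreted protein that binds insulin-like growth factors. Its signal was 886 in DMSO and 238 in C646, a fall of 3.73-fold. It was already low at 12 h, at 913 in DMSO and 301 in C646. In HCT116 the gene was under the limit in both columns at 96 h (122 and 123), so the second line gives no value for it. No other member of the IGF axis list changed: IGFBP4 was 1 of 13 rows compared, and the median of the list was -0.01, against -0.02 over all rows.

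Other large coding falls were of mixed function. FOSL1, an AP-1 subunit that follows ERK activity, had a signal of 1527 in DMSO and 619 in C646 (2.47-fold lower). ARHGDIA, which holds small GTPases in the cytosol, went from 2250 to 932 (2.41-fold lower). HMGA1, an architectural chromatin protein abundant in carcinoma, went from 1361 to 636 (2.14-fold lower). All 3 were lower at 12 h as well, with log2 ratios of -1.25, -1.49 and -1.69. Log2 ratios at 96 h were -1.06 for RPS6KA4 (the kinase MSK2, which phosphorylates histone H3 and CREB), -1.02 for PA2G4 (an ERBB3-binding growth regulator), -1.01 for HYOU1 (a chaperone of the endoplasmic reticulum) and -0.99 for SLC4A2 (an anion exchanger), and PTMS (parathymosin) went from 937 to 468. These 5 genes also passed 1.5-fold downward at 12 h.

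A different group of falls was present at 96 h and not at 12 h. ID2 and ID3 are inhibitors of basic helix-loop-helix factors and classical targets of BMP and SMAD signalling. ID2 had signals of 510 in DMSO and 603 in C646 at 12 h, and of 844 and 300 at 96 h, so the treated cells went from a log2 ratio of 0.24 to -1.49. ID3 had 1682 and 1859 at 12 h and 1874 and 798 at 96 h, or 0.14 and -1.23. In both genes the C646 column itself was lower at 96 h than at 12 h, by 1.01 for ID2 and 1.22 for ID3 on the log2 scale. The control rose between the times, by 0.73 for ID2 and 0.16 for ID3, and against the 12 h control the 96 h treated cells were at -0.77 and -1.08. ID1, the third gene of this kind, went from 1849 to 1317 at 96 h (-0.49), under the threshold. ID2 was at 0.21 and ID3 at 0.18 in HCT116 at 96 h. ID2 and ID3 were the only 2 changes among 26 TGF-beta ligands, SMADs and targets compared, with a median of -0.07 and 17 below 0. Over all rows 1.23% fell, 53.7% were below 0 and the median was -0.02. UBASH3B, a phosphatase that restrains receptor tyrosine kinases, was 500 in DMSO and 277 in C646 at 96 h (-0.85) and at -0.12 at 12 h. Its control rose by 0.36, and the 96 h treated cells were at -0.49 against the 12 h control, under the threshold.

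In IFITM1, JUN and GDF15 the 96 h treated cells were within 1.5-fold of the 12 h control. IFITM1, an interferon-induced membrane protein, had a signal of 643 in DMSO at 12 h and 1868 in DMSO at 96 h, while C646 was at 627 and 948. Its log2 ratio was -0.03 at 12 h and -0.98 at 96 h, and the 96 h treated cells were above the 12 h controls by 0.56. GDF15, a stress-induced cytokine, rose from 1427 to 3780 in DMSO and from 824 to 1893 in C646, so it was already past 1.5-fold lower at 12 h, at -0.79 against -0.998 at 96 h, and its 96 h treated signal was 0.41 above the 12 h control. JUN, the core AP-1 subunit, was 1034 and 1460 in DMSO and 899 and 835 in C646, and its ratio went from -0.20 to -0.81. For these 3 genes, as for ID2, the ratio at 96 h holds a rise of the control with time. In YWHAE, the 14-3-3 protein epsilon, the control moved the other way. It fell from 1751 at 12 h to 862 at 96 h while the treated cells were at 607 and 509, so the ratio shrank from -1.53 to -0.76.

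**Figure D2:**
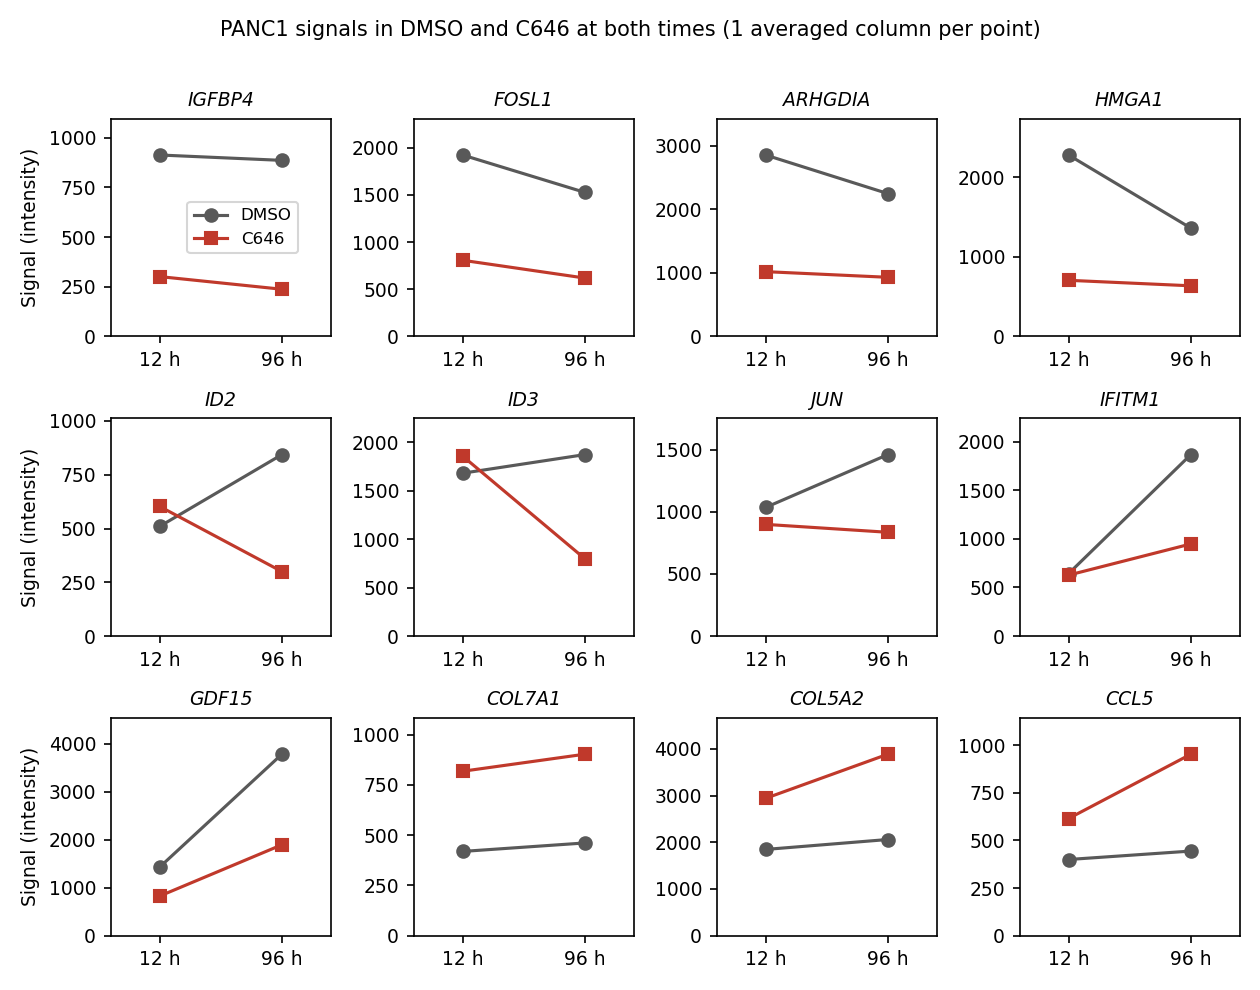
Signals of 12 genes in PANC1 on linear axes from 0, for DMSO (grey circles) and C646 (red squares) at 12 and 96 h, each point 1 column averaged by the authors from 2 arrays. In ID2 and ID3 the columns part downward only at 96 h, the DMSO column climbs in ID2, JUN, IFITM1 and GDF15, and in IGFBP4, FOSL1 and COL7A1 the gap was present at both times.

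Promoters of the genes that carry these falls are shown, since CBP and p300 are recruited to such regions. They run from 250 bases before to 50 bases after the gene start on the gene's strand, from RefSeq (GRCh38.p14). IGFBP4 (chr17:40443200-40443499, plus strand) is the largest fall, ID2 (chr2:8681806-8682105, plus) and ID3 (chr1:23559452-23559751, minus) are the late falls, and EPHA2 (chr1:16156020-16156319, minus) and AP2B1 (chr17:35587072-35587371, plus) hold the cAMP response element TGACGTCA, to which CREB and its relatives bind. Capitals mark matches to the motifs searched:
IGFBP4: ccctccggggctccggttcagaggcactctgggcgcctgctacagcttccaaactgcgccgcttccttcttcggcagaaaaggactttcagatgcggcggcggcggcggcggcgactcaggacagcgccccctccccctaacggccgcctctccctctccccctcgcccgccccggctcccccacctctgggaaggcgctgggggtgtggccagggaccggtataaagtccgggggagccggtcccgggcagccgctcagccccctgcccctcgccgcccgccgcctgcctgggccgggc
ID2: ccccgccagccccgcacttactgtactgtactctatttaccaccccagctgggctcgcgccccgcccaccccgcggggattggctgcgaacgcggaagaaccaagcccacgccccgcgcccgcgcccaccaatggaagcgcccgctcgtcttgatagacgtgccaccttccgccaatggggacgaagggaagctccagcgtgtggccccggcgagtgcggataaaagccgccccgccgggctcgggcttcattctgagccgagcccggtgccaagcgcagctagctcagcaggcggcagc
ID3: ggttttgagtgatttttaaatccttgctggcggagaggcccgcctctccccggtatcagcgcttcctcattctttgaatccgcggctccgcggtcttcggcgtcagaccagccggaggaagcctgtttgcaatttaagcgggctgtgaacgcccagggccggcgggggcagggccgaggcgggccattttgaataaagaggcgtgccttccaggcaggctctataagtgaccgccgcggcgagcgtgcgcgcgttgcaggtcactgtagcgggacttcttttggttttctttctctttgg
EPHA2: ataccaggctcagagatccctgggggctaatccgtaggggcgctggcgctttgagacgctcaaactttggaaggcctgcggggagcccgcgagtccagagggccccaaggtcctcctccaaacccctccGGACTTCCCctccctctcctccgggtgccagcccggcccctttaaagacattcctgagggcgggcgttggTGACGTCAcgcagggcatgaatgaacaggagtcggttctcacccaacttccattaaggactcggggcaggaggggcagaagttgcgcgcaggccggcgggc
AP2B1: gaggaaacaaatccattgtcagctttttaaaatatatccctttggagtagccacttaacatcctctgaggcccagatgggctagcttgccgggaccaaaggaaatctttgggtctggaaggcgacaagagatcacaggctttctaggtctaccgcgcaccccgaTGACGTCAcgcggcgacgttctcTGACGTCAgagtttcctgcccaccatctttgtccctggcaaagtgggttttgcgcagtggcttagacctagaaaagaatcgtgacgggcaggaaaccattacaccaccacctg
EPHA2, a receptor tyrosine kinase that ERK activity induces, went from 1338 to 687 (-0.96), and its TGACGTCA begins 51 bases before the start, with a match to GGGNNNTCC, the ends of an NF-kB site, on the other strand beginning 121 bases before it. AP2B1, a subunit of the clathrin adaptor AP-2, went from 450 to 256 (-0.81) and has TGACGTCA at both 86 and 63 bases before the start.

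Motifs were searched on both strands in the promoters of 119 lower and 232 higher protein-coding rows that matched the table. TGACGTCA was in 7 of the lower (5.88%) and 8 of the higher (3.45%), against 3.37% of the 9398 compared rows with a promoter and 1.98% of all 27305 promoters. The other lower genes with it were MLF2, RBM42, DULLARD, SSSCA1 and MAPRE2, at -0.80, -0.68, -0.63, -0.61 and -0.59. The AP-1 motif TGANTCA was in 5.04% of the lower, 6.03% of the higher and 4.35% of the compared promoters. GGGNNNTCC was in 22.7% of the lower, 28.4% of the higher and 25.2% of the compared promoters. The sterol element TCACNCCAC was in 0 of the lower, 3 of the higher and 1.12% of the compared promoters, and the serum response element of SRF in 1 of the lower, 0 of the higher and 0.149% of the compared promoters. A match to the letters is a description of the window and not a site. The median GC content was 67% in lower, 65.3% in higher and 65.3% in compared promoters.

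Rises were larger than falls and were led by rows of repeated or unnamed sequence. The largest was LOC100008589, whose identifier is now RNA28SN5 (28S ribosomal RNA), at 173 in DMSO and 1418 in C646 (3.04 on the log2 scale). LOC100132394, LOC100133840 and LOC100132564, which matched no current gene, were at 2.49, 2.43 and 2.40. NBPF20, of a family of near-identical neuroblastoma breakpoint genes, was 672 in DMSO and 3272 in C646, a 4.87-fold rise. Of 16 NBPF rows 7 were compared and 4 rose (NBPF20 2.28, NBPF8 1.93, NBPF10 1.67, NBPF11 0.78) while NBPF14, NBPF1 and NBPF3 were at 0.39, 0.15 and 0.15. Which of these copies a probe reads is uncertain, because their sequences are nearly the same.

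Outside that family the largest coding rise was LMOD3, an actin nucleator of muscle, at 863 in DMSO and 3682 in C646 (4.27-fold). FAM73A (now MIGA1, of mitochondrial fusion) rose by 1.82, CCBE1 (a secreted factor of lymphatic growth) by 1.67, ZNF652 (a zinc finger repressor) by 1.63, HNRNPU (a nuclear RNA-binding scaffold protein) by 1.62, MAGT1 (a magnesium transporter and oligosaccharyltransferase subunit) by 1.62 and USP49 (a histone H2B deubiquitinase) by 1.58. The 15 largest coding rises lay between 1.56 and 2.28 at 96 h and between 1.11 and 1.80 at 12 h, and all 15 passed 1.5-fold upward at 12 h and in HCT116 at 96 h, where they lay between 0.59 and 1.85. Their controls stayed within 1.5-fold but did move: DMSO at 96 h over 12 h was -0.39 to 0.38, against a median of 0.02 over all rows. What the probes of these rows bind was not tested, since no probe sequences were used here. The 15 largest coding falls were less alike. They ran from -1.90 to -0.97 at 96 h, 11 of 15 passed 1.5-fold downward at 12 h, and 7 of 15 did so in HCT116.

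**Figure D3:**
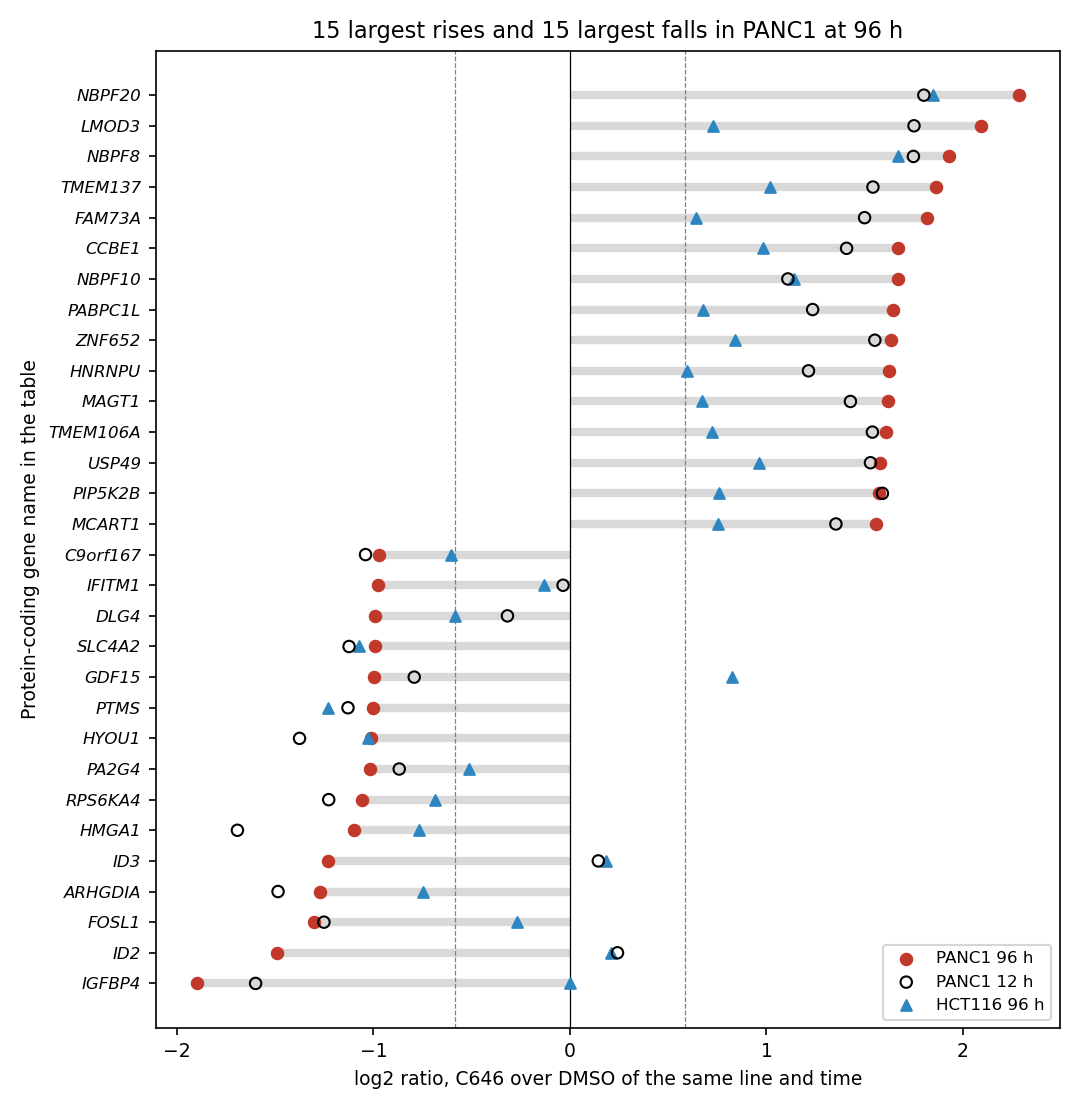
Log2 ratios of C646 over DMSO of the same line and time for the 15 largest coding rises and falls in PANC1 at 96 h (red), with PANC1 at 12 h (open circles) and HCT116 at 96 h (blue triangles). Dashed lines mark 1.5-fold. All rises keep to 1 side in all 3 comparisons, while ID2, ID3 and GDF15 among the falls do not. The HCT116 point of IGFBP4, at 0.002, comes from signals under the limit in both columns.

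The drug's own targets changed little at the RNA level. CREBBP was 599 in DMSO and 610 in C646 (0.03), and EP300 319 and 260 (-0.30). β-catenin (CTNNB1) was 224 and 213 (-0.07), and TCF7L2, the factor that carries it to DNA, 215 and 192 (-0.17). Of 13 acetyltransferases compared, KAT2A (GCN5, the catalytic subunit of SAGA) was the only one past 1.5-fold, from 1125 to 1768 (0.65), and it was at 0.69 at 12 h. None of 14 deacetylases and none of 17 acetyl-lysine readers passed, while 4.13% of all rows changed. Their largest sizes were -0.43 for SIRT2, -0.41 for HDAC2, -0.51 for ATAD2 and -0.49 for YEATS4.

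Of 22 WNT targets compared, 0 rose and 4 fell: ID2, FOSL1, SOX9 and JUN. SOX9, a factor of progenitor and ductal cells, was 1376 in DMSO and 747 in C646 (-0.88), and it was at -0.96 at 12 h and -0.71 in HCT116. The list's median was -0.12, and over all rows 1.23% fell and 53.7% were below 0. The gene that reports β-catenin activity most directly, AXIN2, was close to the limit (140 in DMSO and 134 in C646), and CCND1 (3364 and 3424), MYC (1272 and 1343) and BIRC5 (939 and 1175, or 0.32) did not pass 1.5-fold. These 4 genes are named because the study's question turned on WNT signalling. In the β-catenin complex BCL9L, a co-activator that bridges to PYGO, fell from 370 to 236 (-0.65), 1 of 12 compared.

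In the AP-1 and ERK lists every changed gene fell. Of 13 AP-1 genes, 3 fell and 0 rose, with 10 of 13 below 0 and a median of -0.19. That median was near the low end of the medians of all 64 lists, this one included, which ran from -0.22 to 0.12. FOS itself was dim, at 168 in DMSO and under the limit in C646, at least 1.22-fold lower. Of 28 ERK output and feedback genes, 5 fell and 0 rose, 21 were below 0, and the median was -0.17. They were FOSL1, HMGA1 and EPHA2, described above, with the feedback inhibitors SPRY2 (1072 to 676, -0.66) and SPRY4 (316 to 205, -0.62). Between 12 and 96 h the DMSO signals of JUN, FOS and SPRY2 rose by 0.50, 0.36 and 0.37. Against the 12 h control, their 96 h treated cells were at -0.31, -0.23 and -0.29, under the threshold. FOSL1, HMGA1 and EPHA2 were at -1.64, -1.84 and -1.21 against it, and the SPRY4 control rose by 0.27. FOSL1 and JUN count in more than 1 list. Over all 16562 rows, 1.23% fell, 53.7% were below 0 and the median was -0.02.

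Of 7 14-3-3 proteins 2 fell, YWHAE and SFN (14-3-3 sigma, 793 to 528, -0.59), and the median was -0.22, against 1.23% and -0.02 over all rows. Of 38 PI3K and AKT pathway genes 1 fell, MLST8 (a subunit of mTOR complexes, 839 to 528, -0.67). No EGF receptor or ligand passed among 7 compared, HBEGF having the largest size at -0.47. ANKRD1, a YAP target, had a signal of 219 in DMSO and was under the limit in C646, at least 1.58-fold lower, and NT5E, which makes adenosine at the cell surface, went from 2782 to 1768 (-0.65). They were the 2 falls among 26 YAP and TEAD targets, while 1.23% of all rows fell. The ANKRD1 control rose by 0.43 between 12 and 96 h. Against the 12 h control its 96 h treated signal was at -0.26, under the threshold.

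Of 28 collagen and matrix genes compared, 5 rose and 0 fell, 19 were above 0, and the median was 0.08. Over all rows 2.9% rose and 46.3% were above 0. COL7A1, the anchoring fibril collagen, was 461 in DMSO and 902 in C646 (0.97). COL5A2 was 2059 and 3886 (0.92) and COL5A1, its partner chain in fibrils, 222 and 367 (0.72). LAMA5, a laminin chain of epithelial basement membranes, was 5091 and 8077 (0.67), and COL1A1 242 and 379 (0.65). ITGA5, the fibronectin receptor subunit, was 590 and 1030 (0.80), the only rise among 21 integrins. At 12 h COL7A1 was at 0.96, LAMA5 at 0.81, ITGA5 at 0.71 and COL5A2 at 0.67. In HCT116 at 96 h ITGA5 was at 0.64, LAMA5 at 0.44, COL7A1 at 0.23 and COL5A1, dim there, at -0.04, and COL5A2 was under the limit.

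In other lists of shape and adhesion the changes were few. MSN (moesin, which ties actin to the membrane) fell by 0.67 and ARPC1B (a subunit of the Arp2/3 complex) rose by 0.63, the 2 changes among 44 actin genes. TUBA4A and TUBG2, an α- and a γ-tubulin, both rose by 0.73, the 2 changes among 14 tubulins. Over all rows 4.13% changed, against 4.55% of the actin rows and 14.3% of the tubulin rows. None of 21 epithelial junction and keratin genes passed. Of 8 mesenchymal markers and factors 1 rose, ITGA5, and the median was 0.12, while VIM (-0.02), CDH2 (-0.26) and ZEB1 (-0.03) were within 1.5-fold.

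**Figure D4:**
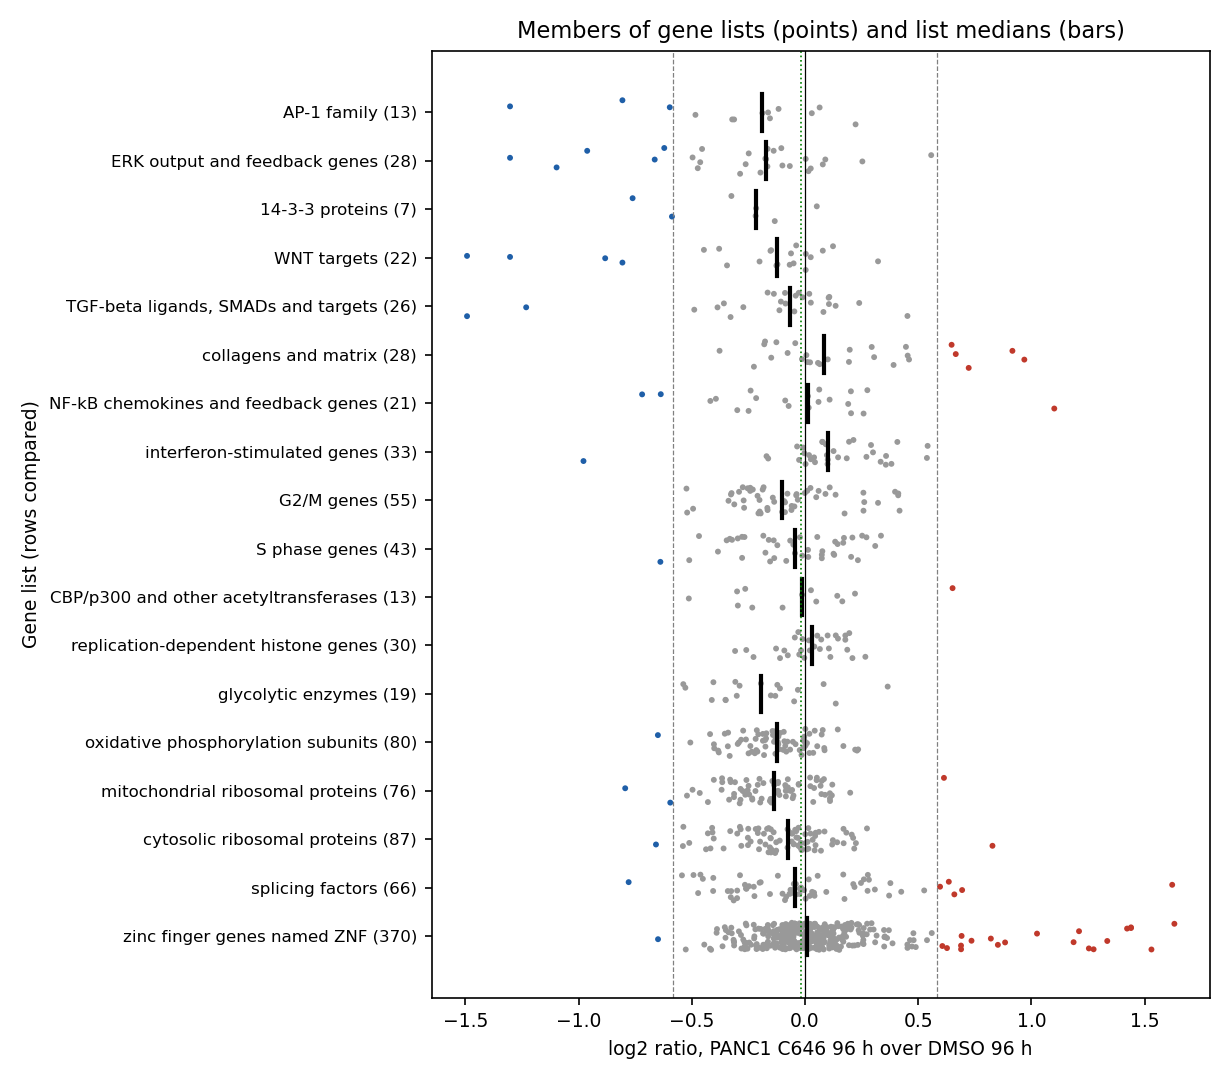
Log2 ratios of C646 over DMSO in PANC1 at 96 h for the rows of 18 gene lists, with the number of rows compared in brackets. Points are genes (red or blue past 1.5-fold, at the dashed lines), black bars are list medians and the dotted green line is the median of all rows, -0.02. AP-1 and ERK lists have their changed genes on the left, and the collagen list on the right, while the zinc finger list has 20 on the right and 1 on the left.

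In the NF-kB list a chemokine rose while subunits fell. CCL5, which draws T cells and monocytes, was 444 in DMSO and 952 in C646 (1.10), with 0.62 at 12 h. RELA, the p65 subunit, was 371 and 226 (-0.72), and RELB 259 and 167 (-0.64). These were the 3 changes among 21 rows, against 4.13% of all rows, with a median of 0.01. IFITM1 was the only change among 33 interferon-stimulated genes, and 26 of the 33 were above 0, against 46.3% of all rows, with a median of 0.10. HLA-B was at 0.57 and TAP1 at 0.43, and none of 12 antigen presentation genes passed. C6orf150 (now CGAS), the sensor of cytosolic DNA, rose from 322 to 523 at 96 h (0.70) and was at -0.03 at 12 h. In HCT116 it was under the limit.

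Growth control and survival genes showed single changes, while 4.13% of all rows changed. BCL2L1, which encodes the survival protein BCL-XL, went from 2258 to 1346 (-0.75) and was the only change among 16 BCL2 family genes. GADD45A, a stress-induced growth arrest gene, rose from 654 to 1055 (0.69). CDKN1A (p21) was 857 in DMSO and 1007 in C646 (0.23), and at 12 h it was 551 and 1006 (0.87). Its control rose by 0.64 between the times, and against the 12 h control the 96 h treated cells were at 0.87. In HCT116 at 96 h it was at 1.37. None of 55 G2/M genes passed, TPX2 and KIF20B (both of the spindle) being lowest at -0.52, and the median was -0.10 with 39 below 0. Of 43 S phase genes 1 fell, RRM2 (the small subunit of ribonucleotide reductase, -0.64), and the median was -0.04. CCNK, the cyclin of CDK12, fell from 1494 to 874 (-0.77), 1 of 16 cyclins.

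None of 30 replication-dependent histone genes passed 1.5-fold, and their median was 0.03. HIST1H4C (now H4C3) had the largest size, -0.31, at signals of 17537 and 14160. H2AFX, the variant phosphorylated at DNA breaks, went from 652 to 402 (-0.70), 1 of 12 histone variants, while 1.23% of all rows fell. Its control fell by 0.95 between 12 and 96 h, and its ratio at 12 h was -1.41.

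Medians of several housekeeping lists were below 0 by small amounts, as were 53.7% of all rows. Not every such list was lower: the median was 0.02 for 21 aminoacyl-tRNA synthetases. For 47 proteasome subunits it was -0.02, as over all rows. The median was -0.19 for 19 glycolytic enzymes with 16 below 0, -0.12 for 80 oxidative phosphorylation subunits with 62 below 0, -0.14 for 76 mitochondrial ribosomal proteins with 58 below 0, and -0.15 for 33 lysosomal genes with 24 below 0. Few members passed. ATP5D (ATP synthase delta) fell by 0.65, MRPL12 by 0.79 and MRPL48 by 0.59, while MRPS25 rose by 0.61, and none of the glycolytic enzymes passed. Among lysosomal proteases CTSZ rose from 232 to 437 (0.92) and CTSD fell from 2961 to 1829 (-0.70). Of 9 metallothioneins 8 were below 0, none passed, and the median was -0.19. Without replicate arrays these shifts have no error to be set against.

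Stress and lipid lists were near the median of all rows. None of 28 ATF4 targets passed and their median was 0.01, with TRIB3 at 0.49 and NUPR1 at -0.57 as the largest sizes. The NUPR1 control rose by 1.19 between the times, and against the 12 h control the 96 h treated cells were at 0.62. In 21 genes of cholesterol synthesis the median was 0.02 at 96 h and -0.28 at 12 h. HSD17B7, a late enzyme of the pathway, was the only change, at 2888 in DMSO and 7871 in C646 (1.45). It was at 1.41 at 12 h and 0.64 in HCT116 at 96 h, and what its probe binds was not tested. CALR (calreticulin, -0.64) and HYOU1 were the 2 falls among 22 chaperones of the endoplasmic reticulum, and their list's median was -0.04. ABCC3, an efflux pump, rose from 487 to 904 (0.89) and TKT, of the pentose phosphate pathway, from 1916 to 2949 (0.62), the 2 changes among 21 NRF2 genes. EIF2AK4, the amino acid sensor kinase GCN2, rose from 565 to 1257 (1.15) and was at 1.21 at 12 h. ULK1, which starts autophagy, rose from 547 to 975 (0.83), and GABARAPL1 from 225 to 350 (0.63), the 2 changes among 25 autophagy genes. Beside these counts, 4.13% of all rows changed, with 2.9% higher and 1.23% lower.

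Of 66 splicing factors 5 rose (HNRNPU 1.62, TRA2A 0.69, SFRS5 0.66, SFRS14 0.64, HNRNPA3 0.60) and SF3A2 fell by 0.78, while the median was -0.04. Of 370 genes named ZNF, 20 rose and 1, ZNF444, fell (-0.65), against 2.9% and 1.23% of all rows. The median of the list was 0.01, and the largest rises were ZNF652 (1212 to 3755, 1.63), ZNF483 (354 to 1023, 1.53), ZNF682 (1097 to 2977, 1.44) and ZNF786 (679 to 1841, 1.44). What the probes of these rows bind was not tested. CNOT3, a scaffold of the CCR4-NOT deadenylase, fell from 403 to 239 (-0.75). Of 87 cytosolic ribosomal proteins RPL7L1 rose by 0.83 and RPS26, which has many near-identical pseudogenes, fell by 0.66, the median being -0.08.

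Small RNA rows changed in both directions. Y RNAs, which bind the Ro protein, were split: RNY4 went from 427 to 224 (-0.93) and RNY1 from 701 to 396 (-0.82), while RNY3 went from 427 to 719 (0.75). SNORD3D and SNORD3A, copies of the U3 RNA that processes ribosomal RNA, rose by 0.87 and 0.62. Of 575 rows named MIR, 73 were compared, 0 rose and 2 fell. MIR130A went from 386 to 226 (-0.77), and was at -0.65 at 12 h and -0.57 in HCT116. MIR1974, which matched no gene of the RefSeq table, had 2705 in DMSO and 657 in C646, the lowest log2 ratio of all rows (-2.04). It was at -0.21 in PANC1 at 12 h and at -2.42 in HCT116 at 96 h, and its PANC1 control rose by 0.97 from 12 to 96 h. A gene row of this array does not tell a precursor from a mature miRNA. What the probes of these small RNA rows bind was not tested, so the values are signals of rows and not measured levels of those RNAs.

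By class of name, the rises were spread well beyond coding genes. Of 11638 protein-coding rows 281 rose (2.41%) and 151 fell (1.30%). Of 1619 rows with a LOC name that matched no gene, 89 rose (5.50%) and 14 fell (0.865%), and of 328 other RNA genes 24 rose (7.32%) and 1 fell. Pseudogene rows split almost evenly, with 37 rises and 30 falls among 1092. Protein-coding rows made up 58.4% of rises and 74.4% of falls.

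**Figure D5:**
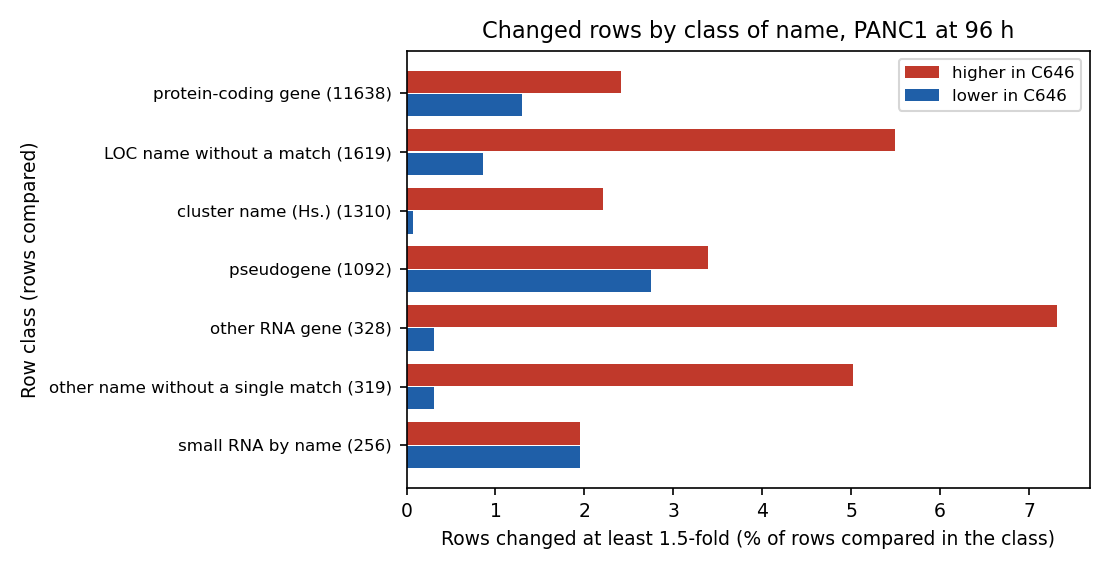
Percent of rows compared in each class of name that were at least 1.5-fold higher (red) or lower (blue) with C646 in PANC1 at 96 h, with the number of rows in brackets. Rises exceed falls in every class but rows of small RNAs, where 5 rose and 5 fell.

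The same rows were read in comparisons that use other columns. In PANC1 at 12 h, where 4.09% of 17089 rows were higher and 2.76% lower, 480 of the 481 rises were above 0 and 383 passed 1.5-fold, with a median of 0.92. Of the 203 falls 197 were below 0 and 133 passed, with a median of -0.71. In HCT116 at 96 h, where 1.87% of 17146 rows were higher and 1.2% lower, 451 of 466 rises above the limit had the same direction and 178 passed, with a median of 0.51. Of 196 falls above the limit there, 182 had the same direction, 76 passed and 3 passed the opposite way, with a median of -0.50. The changes thus had the same direction in most rows in both comparisons and a smaller median size in HCT116. In PANC1 14 rises and 18 falls at 96 h had been within 1.2-fold at 12 h. BPNT1, a nucleotide phosphatase, was such a rise, from 191 to 340 (0.83) against 0.20 at 12 h.

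ICG-001 at 96 h was read against the same DMSO column, so its values are only set beside those of C646. ID3 was at -1.23 with C646 and at 0.69 with ICG-001, and ID2 at -1.49 and -0.57. CCL5 was at 1.10 with C646 and 3.07 with ICG-001, IFITM1 at -0.98 and -1.95, and IGFBP4 at -1.90 and -1.28. COL5A2 was at 0.92 and -0.37, and KAT2A at 0.65 and 0.08. ICG-001 blocks the binding of CBP to β-catenin, and C646 competes with acetyl-CoA in both CBP and p300. They thus share CBP, differ in mode of action and are not analogs, and both were given at 10 uM.

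The control itself moved with time, in few rows past the threshold. DMSO at 96 h over 12 h passed 1.5-fold upward in 1% and downward in 0.34% of 16184 rows. Its median was 0.24 over the 481 rises and -0.17 over the 203 falls, against 0.02 over all rows. It moved the same way as the C646 change in 399 of 473 rises above the limit (84.4%) and 141 of 203 falls (69.5%). Of all rows above the limit, 53.8% were above 0. Against the 12 h control, over which 6.04% of 16610 rows were higher and 4.07% lower, 456 of the rises (94.8%) and 163 of the falls (80.3%) passed 1.5-fold. The treated column there is the one that chose these rows, so the counts are a description. Near the threshold, LAMC3, POLA2 and LOC132241 were just inside at 0.59, and LOC728895, GK5 and RP5-1022P6.2 just outside at 0.58. MAPRE2, NFKBIB and SFN were just inside at -0.59, and COPG, RRS1 and LOC641768 just outside at -0.58.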

How the data were processed

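Total RNA of PANC1 and HCT116 cells was hybridised by the study to Illumina HumanHT-12 v4 BeadChips. The deposited table gives the intensity of each gene name, not logged, in 12 columns that are the 12 groups of line, treatment and time. The authors' methods name GenomeStudio, with arrays quantile-normalized and background left in, and the columns are means of replicate arrays (2 per column, 3 for PANC1 ICG-001 at 12 h). The values of single arrays were not analysed here. The number of arrays limits the precision, and no error is given. GenomeStudio's version and the build behind the probe annotation were not given in the sources used here.

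Columns were assigned by their titles. Log2 ratios were computed between columns, with the limit, the filter and the 1.5-fold threshold described above. Of the 34687 names, 17755 were current symbols of the RefSeq table (GRCh38.p14), 3305 older symbols, 2669 LOC names matched by identifier, 6810 LOC names unmatched, 4004 other names unmatched, and 144 older symbols of several genes. Promoters came from RefSeq; FOSL1 had no entry. Genes named were the 15 largest coding rises and falls, the 5 largest of other rows, the 10 largest shared with 12 h, 5 each way absent at 12 h, up to 4 per list, CREBBP, EP300, CTNNB1 and TCF7L2, and 3 on each side of the threshold. AXIN2, CCND1, MYC, BIRC5, ID1, NBPF members and MIR130A were added after their values were seen. The text gives values for part of these, and a few are left out. The comparison and all gene lists were chosen with earlier results of these data known. Other settings tried were thresholds of 1.2 and 2, dim rows kept, 5 SD as the limit, a limit in both columns, normexp with an offset of 16, centring, quantile normalization over 12 columns, the 12 h control and, added after seeing the data, protein-coding rows alone. Normexp was run with limma 3.58.1 (R 4.3.3), all else with Python 3.11.15, numpy 2.4.6, pandas 2.3.3 and matplotlib 3.10.9.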

Additional observations from a re-analysis of the deposited data

Results flagged for a closer look

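A pair of genes moved past 1.5-fold in opposite directions in the 2 cell lines at 96 h. GDF15, a stress cytokine, was at -0.998 on the log2 scale in PANC1 (3780 in DMSO and 1893 in C646) and at 0.83 in HCT116 (2859 and 5065), and at 12 h it was lower in both lines, at -0.79 and -1.07. SFN, the 14-3-3 protein sigma, was at -0.59 in PANC1 (793 and 528) and at 0.81 in HCT116 (1429 and 2500). The call of SFN in PANC1 rested on the threshold: it was at -0.57 after centring and at -0.58 after quantile normalization over all 12 columns, both under 1.5-fold. GDF15 in PANC1 was at 0.41 against the DMSO 12 h column. With 1 averaged column per group, the difference between the lines was not tested.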

How the results depend on the processing

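The number of changed rows depended on the threshold. At 1.2-fold 3644 rows changed, 1717 higher and 1927 lower, and at 2-fold 200 rows, 186 higher and 14 lower. With normexp, which removes background, 1892 rows changed, 1099 higher and 793 lower. Against the DMSO 12 h column 1679 changed, 1003 higher and 676 lower. Protein-coding rows alone gave 432 changed rows, 281 of them higher. The share of changed rows that were higher, 70.3% as reported, was 47.1% at 1.2-fold, 93% at 2-fold, 58.1% with normexp, 59.7% against DMSO 12 h, 65.0% for coding rows and 73.4% after centring. Of rises, 1284 at 1.2-fold and 159 at 2-fold were also past that threshold at 12 h, and 778 and 12 were in HCT116. Of falls, 1209 and 8 were at 12 h, and 818 and 5 in HCT116. With the filter dropped, a limit at 5 SD, a limit in both columns (673 rows), centring (685) or quantile normalization over 12 columns (650), the count stayed within 1.5 times. The cause of each shift was not tested. Against DMSO 12 h, GDF15 turned to 0.41 and IFITM1 to 0.56, and 13 of 111 named genes past 1.5-fold no longer passed, among them JUN, SPRY2, ANKRD1, TKT, UBASH3B and C6orf150. Centring took 6 genes under the threshold, among them FOS, SFN, MRPL48, MAPRE2 and NFKBIB, and quantile normalization over 12 columns took 7, SFN, SCARNA3, LAMC3, POLA2, LOC132241, MAPRE2 and NFKBIB. NUPR1, not past 1.5-fold, went from -0.57 to 0.62 against DMSO 12 h. Of the list medians given above, those of the IGF axis, NF-kB, ATF4, replication-dependent histone, endoplasmic reticulum chaperone and zinc finger lists changed sign under at least 1 setting. No paired analysis was possible because each group had 1 averaged column, and for the same reason no replicate could be left out.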

Other observations

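Several rows that rose carry names of genes usually expressed in tissues other than pancreas, and they were chosen here after their values were seen. IL10, a cytokine of leukocytes, had signals of 1797 in DMSO and 4709 in C646 (1.39 on the log2 scale), and it was at 1.25 at 12 h and 0.71 in HCT116. LEP, the adipocyte hormone leptin, was 363 and 932 (1.36), with 1.35 at 12 h and 0.79 in HCT116. NLRP8, known from oocytes, was 1284 and 3724 (1.54), with 1.70 and 0.81. CATSPER2, a sperm ion channel subunit, was 1665 and 4363 (1.39), with 1.39 and 0.62. QRFPR, a neuropeptide receptor, was 2272 and 6174 (1.44), with 1.25 and 0.62. Of 6 leukocyte markers, CD14 was above the limit in both columns (167 in DMSO and 173 in C646), and PTPRC, CD3E, LYZ and TYROBP were under it. What their probes bind was not tested, since no probe sequences were used here.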
